A study of Homo sapiens with 10 samples.

Results

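The cold shock RNA-binding proteins considered here are the products of 5 genes: the Y-box genes YBX3 and YBX1, the related CARHSP1, and the cold-induced CIRBP and RBM3. Their mRNAs were measured in ST486 cells, a line derived from human Burkitt's lymphoma, at 60 h of lentiviral expression of either an STK38 shRNA or a non-target control shRNA. STK38 is a protein kinase of the NDR family, and the series title ties it to the transcriptional activity of MYC. Each group held 5 arrays of 1 cell line and the STK38 shRNA was a single hairpin, so loss of STK38 and any action of the hairpin elsewhere cannot be told apart. All cells had been transduced, controls included. The labels do not say whether arrays came from separate cultures, so the errors below describe the spread between arrays, which may be technical.

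Members were every probe set, that is every group of array probes for a transcript, whose annotation names only 1 of the 5 genes. This gave 5 of the 12625 probe sets of the array, which together name 8226 genes by single-gene probe sets. YBX1 had 2 of them, YBX3, CIRBP and RBM3 had 1 each, and 0 were shared with another gene. CARHSP1 had no probe set under this rule and was not analysed here, so 4 of the 5 genes were measured. The family was selected on measured differences between these same 2 groups of arrays, with the fall of YBX3 already known to be among the largest. Their differences are therefore given as a description, without p-values, and nothing is inferred from how many of them changed.

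Y-box proteins carry a cold shock domain, an ancient nucleic acid binding fold shared with bacterial cold shock proteins. YBX1 is an abundant protein that packages messenger RNA into ribonucleoprotein particles and controls its translation and stability, and in the nucleus it was first described as a factor that binds the Y-box, an inverted CCAAT sequence in promoters. YBX3, also called DbpA or ZONAB, is its close relative, which binds mRNA and, at epithelial tight junctions, links cell density to proliferation. CARHSP1 is a small cold shock domain protein, a substrate of calcineurin, that binds and stabilises TNF mRNA. CIRBP and RBM3 belong to another family, with an RNA recognition motif and a glycine-rich tail, and are known as the genes that mammalian cells induce on mild cooling.

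The promoters of the 4 measured genes are shown because the CCAAT box is both a common promoter element and the core of the sequence for which the Y-box proteins were named. Each is the 200 bases upstream of the annotated start, from RefSeq on build GRCh38.p14, written 5′ to 3′ on the strand of the gene, with every CCAAT or its reverse complement ATTGG in capitals. YBX3 lies on the minus strand, chr12:10723324-10723523. YBX1 lies on the plus strand, chr1:42682218-42682417, as do CIRBP, chr19:1269132-1269331, and RBM3, chrX:48574284-48574483.
YBX3: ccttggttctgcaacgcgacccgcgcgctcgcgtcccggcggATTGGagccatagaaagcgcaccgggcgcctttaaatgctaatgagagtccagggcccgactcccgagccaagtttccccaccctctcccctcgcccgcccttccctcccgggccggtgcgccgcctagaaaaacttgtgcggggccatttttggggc
YBX1: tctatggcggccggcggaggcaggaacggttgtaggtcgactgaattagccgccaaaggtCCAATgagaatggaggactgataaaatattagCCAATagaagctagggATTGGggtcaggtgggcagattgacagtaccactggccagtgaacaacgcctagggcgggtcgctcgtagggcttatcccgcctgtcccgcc
CIRBP: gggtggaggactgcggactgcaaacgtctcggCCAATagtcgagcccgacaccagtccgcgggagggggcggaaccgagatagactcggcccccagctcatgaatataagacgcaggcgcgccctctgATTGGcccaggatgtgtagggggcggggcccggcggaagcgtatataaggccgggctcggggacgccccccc
RBM3: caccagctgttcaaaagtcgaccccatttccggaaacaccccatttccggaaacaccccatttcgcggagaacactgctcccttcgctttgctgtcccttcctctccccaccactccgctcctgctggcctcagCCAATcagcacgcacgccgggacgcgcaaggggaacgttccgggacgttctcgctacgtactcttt
All 4 of these windows held the motif on at least 1 strand, where 28.0% of the 35116 promoter windows of this length in the table did. YBX1 had 3 matches, beginning 140, 108 and 92 bases before the start, and CIRBP had 2, at 168 and 72 bases. YBX3 had 1 match, an ATTGG at 158 bases, and RBM3 had 1, a CCAAT at 66 bases. The motif was thus present in the promoter of YBX3, which was lower with the STK38 shRNA, and in those of the genes that were not called. The E-box CACGTG, a sequence bound by MYC and MAX, was in 0 of the 4 windows and in 5.49% of all windows. TCCCCGCC, described as a mild cold response element of the CIRBP gene, was in 0 of the 4 on either strand and in 6.66% of all. Of the 5 windows that the table holds for CARHSP1, the member with no probe set, 0 had a CCAAT on either strand. A sequence match is no measurement of binding, and an absent match says only that these letters are not in this window. The GC content was 66% for YBX3, 56.5% for YBX1, 67.5% for CIRBP and 59.5% for RBM3, against a median of 59% over all windows.

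The STK38 mRNA level followed the labels. Its brightest probe set was at 2.83 ± 0.21 in STK38 shRNA arrays and at 5.02 ± 0.22 in non-target shRNA arrays (log2, SD, n = 5 each), a log2 fold change of -2.19 (SE 0.14, limma adjusted p = 5.65e-08). With the STK38 shRNA, 4 of the 5 arrays exceeded the background there. The other STK38 probe sets had log2 fold changes of -1.16 and -0.82. MYC, at its brightest probe set, had a log2 fold change of -1.38 (SE 0.15, limma adjusted p = 9.56e-06). STK38 shRNA replicate 4 stood apart, with a mean correlation of 0.978 with its group where the other arrays of the group had 0.991 (each including replicate 4), and an upper quartile of 3.54 against 3.93 to 4.02 on those. B cell markers CD79A, CD79B, MS4A1 and CD22 were above the array background on all arrays, and PAX5 was not on any. Of the 4 that were tested CD79A was called, higher with the STK38 shRNA. Among markers of other cells, 0 of 5 for monocytes and 0 of 2 measured for erythroid cells were above background on any array, and for T cells LCK alone of 5 was, with CD3D, CD3E, CD3G and CD2 below it throughout. LCK, which B cell lymphomas can also express, was called lower, and the summed linear level of the 5 T cell markers ran from 19.0 to 25.7 in STK38 shRNA arrays and from 31.9 to 43.7 in non-target shRNA arrays; its part in the results below was not tested. KRT8, KRT18 and KRT19 but not EPCAM and CDH1, and COL1A1 but not 3 other collagens, exceeded background on some or all arrays, and 0 markers of either list were called. The 3′ minus 5′ difference, a sign of RNA degradation, was 0.93 ± 0.093 in STK38 shRNA arrays and 0.93 ± 0.096 in non-target shRNA arrays for ACTB (log2, SD, n = 5 each, two-sided exact permutation p = 0.976).

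YBX3 was the member that differed. Its probe set 39839_at, whose values are log2 expression levels as below, was at 4.05, 4.36, 3.89, 3.77 and 4.29 in STK38 shRNA replicates 1 to 5, against 6.37, 5.94, 6.23, 6.25 and 6.59 in non-target shRNA replicates 1 to 5. All STK38 shRNA arrays lay below all non-target shRNA arrays, with a gap of 1.58 between the highest STK38 shRNA array and the lowest control array. The group means were 4.07 ± 0.25 in STK38 shRNA arrays and 6.27 ± 0.24 in non-target shRNA arrays (SD, n = 5 each), a log2 fold change of -2.20 (SE 0.15). On the linear scale the level with the STK38 shRNA was 21.8% of the control level, with a 95% interval of 17.5% to 27.1%, or 4.59-fold lower.

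The signal was above the array background on all 10 arrays, so a level was read on both sides. The processing shrinks differences of dim probe sets, and whether it did so here was not tested. The array background, the 90th percentile of 23 control probe sets that should bind no human messenger RNA, was between 2.36 and 2.66. Ranked by log2 fold change, YBX3 had the 9th largest fall of the 7535 probe sets tested. Without STK38 shRNA replicate 4, whose level of 3.77 was the lowest of its group, the log2 fold change was -2.12. The place depends on the arrays and the scaling. It lay between the 8th and the 16th with single arrays left out, the 16th without non-target shRNA replicate 5, the 14th without STK38 shRNA replicate 3 and the 12th without STK38 shRNA replicate 1, and it was the 13th after quantile normalization. With fewer cells and less RNA per cell not separable in bulk RNA, a level here is a share of the RNA on an array.

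**Figure D1:**
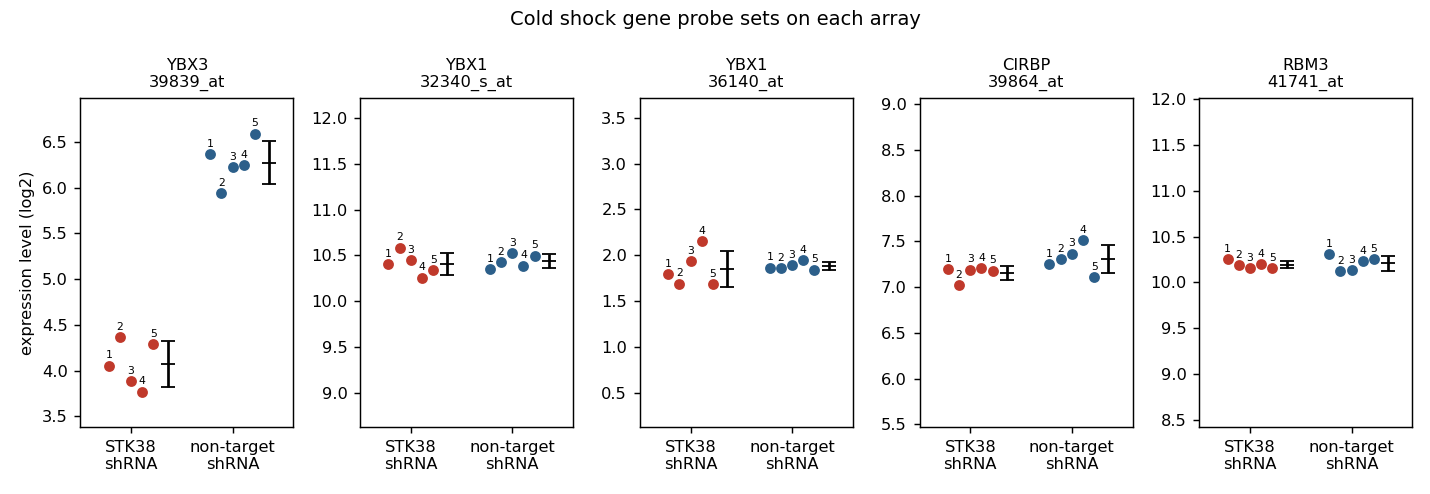
Level (log2, y axis) of each member probe set on each array, with STK38 shRNA in red and non-target shRNA in blue, replicate numbers above the points, and the mean with its SD (n = 5) as a black bar. Every panel spans the same number of log2 units. The YBX3 groups are separated by 1.58, while the groups of the other 4 probe sets overlap.

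YBX1, the most studied Y-box gene, had a high signal and hardly varied. Its bright probe set 32340_s_at was at 10.41, 10.58, 10.45, 10.26 and 10.34 in STK38 shRNA replicates 1 to 5, against 10.35, 10.43, 10.53, 10.39 and 10.50 in non-target shRNA replicates 1 to 5. The groups overlapped, and both the highest and the lowest value were STK38 shRNA arrays. The means were 10.41 ± 0.12 in STK38 shRNA arrays and 10.44 ± 0.074 in non-target shRNA arrays (SD, n = 5 each), a log2 fold change of -0.032 (SE 0.060). The 95% interval, from -0.16 to 0.097, corresponds to a level with the STK38 shRNA between 89.5% and 107% of the control level. A probe set marked s_at can bind transcripts of close relatives, so this signal may not be YBX1 alone.

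The other YBX1 probe set, 36140_at, carried no usable signal. Its levels lay between 1.68 and 2.15 in STK38 shRNA arrays and between 1.84 and 1.95 in non-target shRNA arrays, not above background on any array, and it did not pass the filter on dim probe sets. The highest of its values, 2.15, was STK38 shRNA replicate 4. No fold is given for it.

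CIRBP was slightly lower with the STK38 shRNA, within the spread of the arrays. Its probe set 39864_at was at 7.19, 7.02, 7.19, 7.21 and 7.18 in STK38 shRNA replicates 1 to 5, against 7.25, 7.30, 7.37, 7.51 and 7.11 in non-target shRNA replicates 1 to 5. All but 1 of the control arrays, replicate 5, lay above every STK38 shRNA array. The means were 7.16 ± 0.076 in STK38 shRNA arrays and 7.31 ± 0.15 in non-target shRNA arrays (SD, n = 5 each), a log2 fold change of -0.15 (SE 0.088). Its 95% interval ran from -0.34 to 0.042, or 79.2% to 103% of the control level, so a fall of the size of the lower bound is not told apart from none.

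RBM3, the other cold-induced gene, was the steadiest member. Its probe set 41741_at was at 10.25, 10.19, 10.15, 10.20 and 10.16 in STK38 shRNA replicates 1 to 5, against 10.31, 10.12, 10.13, 10.24 and 10.25 in non-target shRNA replicates 1 to 5. The STK38 shRNA arrays all lay inside the range of the controls. The means were 10.19 ± 0.039 in STK38 shRNA arrays and 10.21 ± 0.082 in non-target shRNA arrays (SD, n = 5 each), a log2 fold change of -0.019 (SE 0.049) with a 95% interval of -0.12 to 0.086, or 91.8% to 106% of the control level.

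In the limma fit across the whole table, which called 29.9% of the 7535 probe sets tested at an adjusted p of 0.05, 1 of the 4 member probe sets tested was called. It was YBX3, called lower like 15.8% of all. Likewise it was the 1 of 4 whose groups did not overlap, against 22.1% of all probe sets tested. Since the members were picked with this comparison known, neither share says anything about the family.

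**Figure D2:**
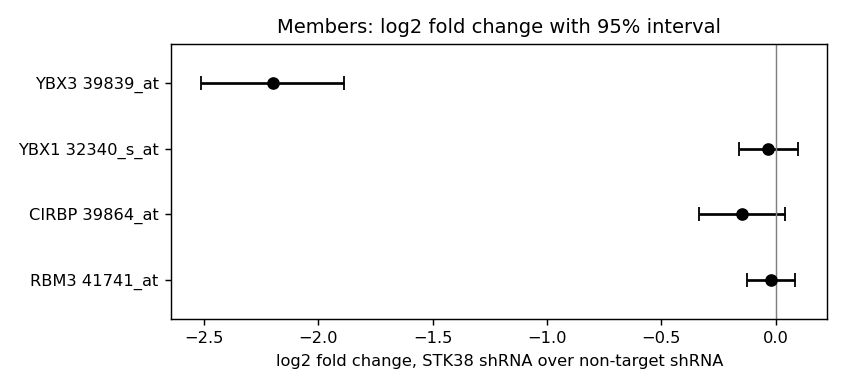
Log2 fold change (x axis) of the 4 tested member probe sets, STK38 shRNA over non-target shRNA, with 95% intervals from the fit across all probe sets. YBX3 is at -2.20, and the intervals of YBX1, CIRBP and RBM3 include 0.

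The spread between arrays of a group was not used to choose the members. The within-group SD, pooled over both groups, was 0.064 for RBM3, smaller than for all but 1.69% of the 7535 probe sets tested, 0.10 for YBX1, 0.12 for CIRBP and 0.25 for YBX3, against a median of 0.18 over all. YBX3 thus varied more from array to array than the other members. The members also differ in brightness. By mean level YBX1 and RBM3 were at the 99.1 and 99.0 percentiles of the array and YBX3 at 82.6. Spread was not compared at matched level.

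Whether members moved together from array to array was examined after the mean of each group had been taken off, for all 6 pairs over 10 arrays. YBX3 and CIRBP had Pearson's r = -0.56 (exact permutation p = 0.0935) and Spearman's rho = -0.58 (exact permutation p = 0.121). Adjusted over the 6 pairs these p-values were 0.418 and 0.488. Without STK38 shRNA replicate 4 and non-target shRNA replicate 5, r was -0.28. These were the 2 arrays at which YBX3 lay farthest from its median before the group means were taken off. That choice follows the group difference, so it does not show whether arrays outlying within a group carry r. Without STK38 shRNA replicate 4 alone, r was -0.56. For the cold-induced pair CIRBP and RBM3, r was -0.21 (exact permutation p = 0.682, adjusted p = 0.682) and rho -0.16 (exact permutation p = 0.688, adjusted p = 0.688). Without STK38 shRNA replicate 2 and non-target shRNA replicate 4, the 2 arrays farthest in CIRBP by the same choice, r was -0.56. With each array centred on its median, r for this pair was 0.014. The 4 other pairs had r between -0.45 and 0.44 (exact permutation p from 0.139 to 0.357, adjusted 0.418 to 0.429) and rho between -0.30 and 0.53 (exact permutation p from 0.163 to 0.494, adjusted 0.488 to 0.592). No pair passed the threshold, so no shared movement of the members within groups was detectable with this number of arrays.

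The genes whose profile over the 10 arrays was most like that of YBX3 were STK38, MCM6, RPS12 and CENPF. Likeness was the root mean square difference of log2 levels after the mean of each probe set was taken off, and it was 0.16 for STK38, 0.21 for MCM6 and 0.23 for RPS12 and CENPF. The nearest was thus the brightest probe set of the targeted gene, and its other probe sets had the smaller differences given above. The brightest STK38 probe set was at 2.95, 2.90, 2.95, 2.46 and 2.88 in STK38 shRNA replicates 1 to 5, against 5.24, 4.80, 4.85, 4.92 and 5.28 in non-target shRNA replicates 1 to 5. At both probe sets STK38 shRNA replicate 4 was the lowest array, and among the controls replicate 5 was the highest and replicate 2 the lowest. STK38 shRNA replicate 4 was also the lowest for MCM6, RPS12 and CENPF. The order of the remaining STK38 shRNA arrays differed, with replicates 2 and 5 the highest for YBX3 and replicates 1 and 3 for STK38.

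MCM6, a subunit of the replicative helicase, was at 6.35 ± 0.24 in STK38 shRNA arrays and 8.24 ± 0.096 in non-target shRNA arrays (SD, n = 5 each). The ribosomal protein gene RPS12 was at 9.17 ± 0.019 in STK38 shRNA arrays and 11.47 ± 0.069 in non-target shRNA arrays (SD, n = 5 each). That signal was read at probe set 33117_r_at, and whether it is RPS12 alone was not tested. CENPF, a kinetochore protein, was at 2.63 ± 0.22 in STK38 shRNA arrays, above background on 4 of the 5, and 4.78 ± 0.30 in non-target shRNA arrays (SD, n = 5 each). This likeness rests mostly on a group difference of similar size and is a description over 10 arrays.

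**Figure D3:**
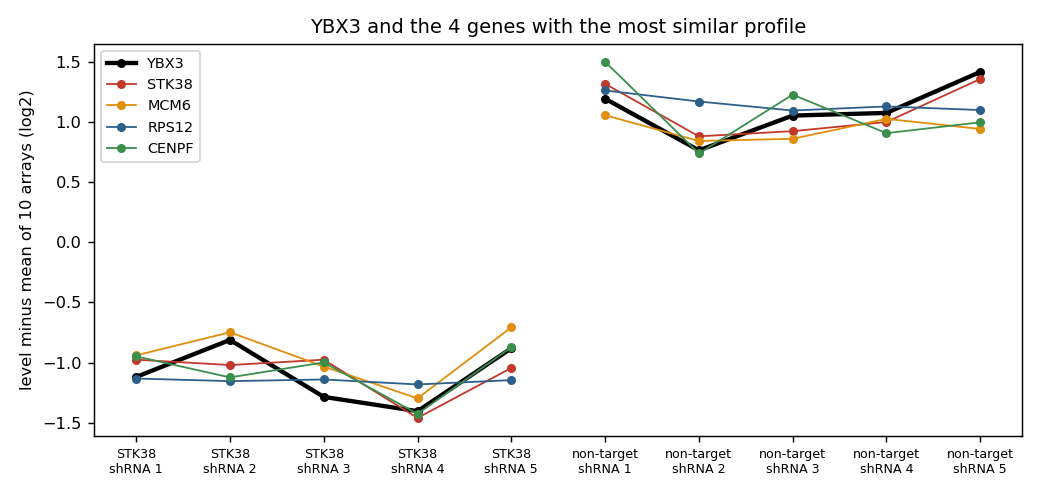
Level minus the mean of the 10 arrays (log2, y axis) for YBX3 in black and the 4 genes with the most similar profile, on each array (x axis). All 5 genes lie below their mean in STK38 shRNA arrays and above it in non-target shRNA arrays, and STK38 shRNA replicate 4 is the lowest array for each.

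The 4 lists of genes around the cold shock proteins were compared in the same fit, on the brightest probe set of each gene. Over all 5403 genes tested 31.0% were called, 15.2% higher and 15.8% lower, with a median log2 fold change of 0.019. The only relatives measured were DIS3, an exosome nuclease with cold shock domains, and RBMXL2, a germ cell relative of RBMX with the same kind of RNA recognition motif. They were the 2 of 8 listed genes on the array with their own probe set, 0 of 2 were called (0 at an unadjusted p under 0.05), and neither was above background on any array.

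Of 17 tested genes for proteins that share messenger RNP particles and stress granules with YBX1, 3 were called lower and 1 higher, or 23.5% called where 31.0% of all genes were, with a median log2 fold change of -0.0070. SYNCRIP, an hnRNP-like protein found with YBX1 on mRNA, was at 7.64, 7.65, 7.63, 7.40 and 7.47 in STK38 shRNA replicates 1 to 5, against 7.92, 8.37, 8.31, 8.24 and 7.69 in non-target shRNA replicates 1 to 5. The groups did not overlap but came within 0.039 of each other, and the log2 fold change was -0.55 (SE 0.12, limma adjusted p = 0.00302). HNRNPU, a nuclear scaffold and RNA-binding protein, had log2 fold changes of -0.51 (SE 0.11, limma adjusted p = 0.00267) and, at a dimmer probe set, -1.11.

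STAU1, which binds double-stranded RNA, fell by 0.41 on the log2 scale (SE 0.093, limma adjusted p = 0.00338). PABPC1, the cytoplasmic poly(A)-binding protein, rose instead. It was at 10.56 ± 0.083 in STK38 shRNA arrays and 10.31 ± 0.14 in non-target shRNA arrays (SD, n = 5 each), with overlapping groups, a log2 fold change of 0.25 (SE 0.066, limma adjusted p = 0.00935) and a rise of 0.19 at its other probe set; the brighter one, an s_at set, may also bind related transcripts. These 4 calls were also made with each single array left out.

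Of 12 tested genes for enzymes that modify the member proteins, 2 were called higher and 0 lower (16.7% called), with a median log2 fold change of 0.067. They were RPS6KA1, the ribosomal S6 kinase RSK1, which phosphorylates YBX1, and DYRK2, a kinase that phosphorylates CARHSP1. RPS6KA1 was at 3.20 ± 0.48 in STK38 shRNA arrays, above background on 4 of the 5, and at 2.64 ± 0.23 in non-target shRNA arrays, above background on 3 of the 5 (SD, n = 5 each; log2 fold change 0.55, SE 0.20, limma adjusted p = 0.0464). DYRK2 had a log2 fold change of 0.47 (SE 0.17, limma adjusted p = 0.0445), and its other probe sets had -0.18 and 0.076. Each call was kept in only 2 of the 10 fits that left out 1 array, that without STK38 shRNA replicate 4 among them (log2 fold change 0.74, limma adjusted p = 0.000372, for RPS6KA1 and 0.59, limma adjusted p = 0.00243, for DYRK2). PPP3CC, a catalytic subunit of calcineurin, had a log2 fold change of -0.14 (SE 0.16, limma adjusted p = 0.597). AKT1, a kinase of YBX1, had -0.14 (SE 0.21, limma adjusted p = 0.702), and 0.027 without STK38 shRNA replicate 4.

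Genes reported elsewhere as targets of the members, at the promoter or as mRNA, included 6 called lower and 0 higher of 17 tested, or 35.3% called, with a median log2 fold change of -0.039. The list was compiled with falls of several of these genes known, and its count is no independent evidence of a direction. SLC7A5 and SLC3A2, the subunits of an amino acid transporter whose mRNAs YBX3 binds and stabilises in other human cells, were both lower. Whether any fall in this list is linked to that of YBX3 was not tested. SLC7A5 was at 7.52, 7.65, 7.52, 7.47 and 7.62 in STK38 shRNA replicates 1 to 5, against 8.69, 8.72, 8.87, 8.73 and 8.85 in non-target shRNA replicates 1 to 5. The groups were more than 1 log2 unit apart, and the log2 fold change was -1.22 (SE 0.069, limma adjusted p = 1.51e-08). SLC3A2 was at 7.17, 7.18, 7.21, 7.24 and 7.21 in STK38 shRNA replicates 1 to 5, against 8.31, 8.35, 8.31, 8.20 and 7.95 in non-target shRNA replicates 1 to 5, again without overlap (log2 fold change -1.02, SE 0.084, limma adjusted p = 5.00e-07).

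VEGFA, the angiogenic growth factor, had the largest difference of this list, and its 3 probe sets had log2 fold changes of -1.76 to -1.26. Its brightest was at 6.77, 6.41, 6.35, 4.43 and 6.76 in STK38 shRNA replicates 1 to 5, against 8.06, 7.84, 7.98, 7.43 and 8.20 in non-target shRNA replicates 1 to 5. Replicate 4 was far below the rest of its group, and without it the fall was 2.51-fold, against 3.38-fold with it (SE of the log2 value 0.35, limma adjusted p = 0.00129). POLA1, the catalytic subunit of DNA polymerase alpha, fell 2.23-fold, or 1.82-fold without replicate 4, the 1 of the 5 STK38 shRNA arrays on which it was not above background (limma adjusted p = 0.00263 and 2.02e-05). TOP2A, topoisomerase II alpha, fell by 1.14 on the log2 scale (SE 0.12, limma adjusted p = 5.26e-06) and by 0.91 and 0.97 at its other probe sets, and PCNA, the replication clamp, fell 1.71-fold (limma adjusted p = 7.46e-05) at the brighter of its probe sets and had a log2 fold change of -1.43 at the other. Among the 11 not called, those nearest to the threshold were RPA2 and ATR, reported CIRBP targets of the replication stress response. RPA2 had a log2 fold change of 0.30 (SE 0.11, limma adjusted p = 0.0506), with groups that did not overlap, and was called in 6 of 17 alternative fits. ATR had -0.37 (SE 0.14, limma adjusted p = 0.0582) and was called in 4 of 17. The cyclin genes CCNA2 and CCNB1 had log2 fold changes of 0.024 and 0.13, and TXN, another reported CIRBP target, had -0.036. Of 24 listed targets, 7 were absent from the test.

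**Figure D4:**
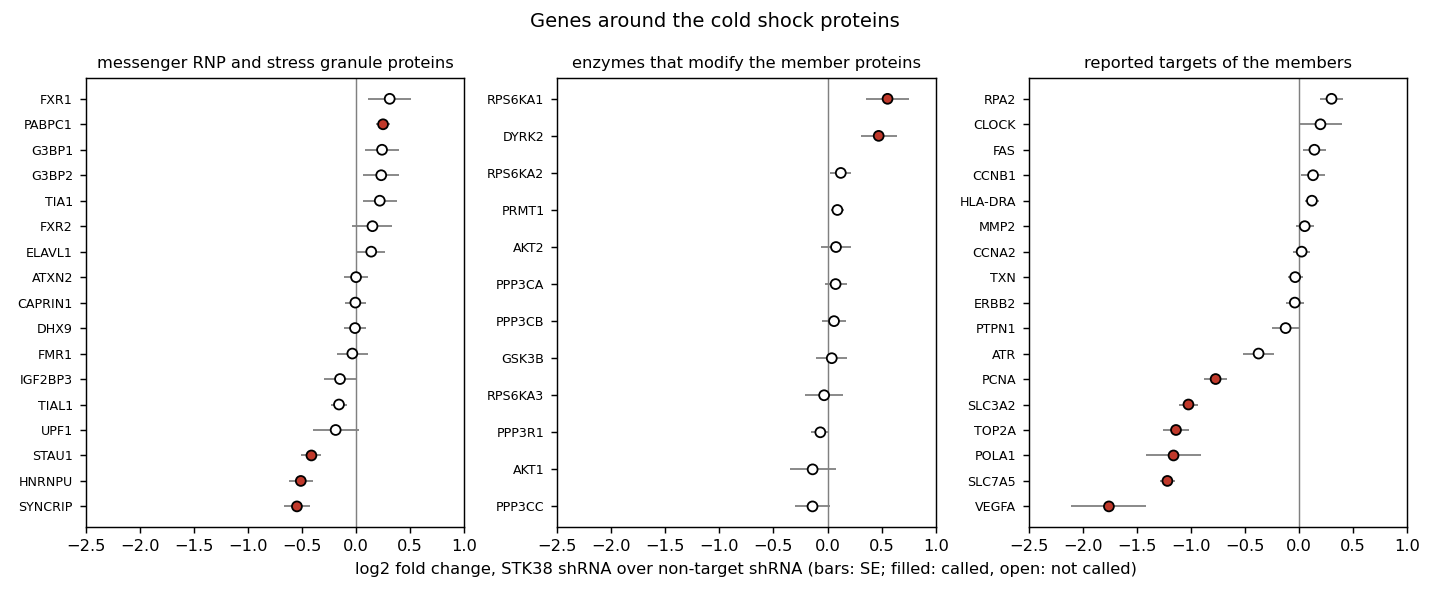
Log2 fold change (x axis, STK38 shRNA over non-target shRNA, bars are SE) of every tested gene of 3 lists, filled where the limma adjusted p was under 0.05 and open where not. In the target list the 6 called genes lie between -1.76 and -0.77, and the others lie between -0.37 (ATR) and 0.30 (RPA2).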

How the data were processed

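Biotin-labelled target from 5 µg of total RNA was hybridised to Affymetrix U95Av2 arrays (1 colour), per the labels. The deposited values are log2 expression levels of 12625 probe sets on 10 arrays; GCRMA and affy are named, with no version, in the submitters' processing notes. No scale is stated; log2 is inferred from the values (0.35 to 12.65) and that tool. GCRMA draws dim probe sets towards a floor, which shrinks their differences, and the number of arrays limits the precision.

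Gene names come from the platform annotation, updated to the RefSeq table of GRCh38.p14; 67 controls were left out, and of the other 12558 probe sets 10943 had 1 gene, 545 several and 1070 none. Probe sets with a mean under the 40th percentile (1.93) were left out. Groups were compared in R 4.3.3 with limma 3.58.1 (eBayes with trend, Benjamini-Hochberg, threshold 0.05), tested on simulated data. The rule named all member probe sets, STK38, MYC, up to 4 genes of each list, called and larger changes first, and the 4 genes most like a called member. SLC3A2, PCNA, RPA2, ATR, CCNA2, CCNB1 and TXN were chosen after their values were seen. Ranking YBX3 in the alternative fits was added after the data were seen. The members and lists were chosen with earlier results of these data known, as was the array background. Within-group correlations used all 14400 orders of arrays within groups. Figures were drawn with matplotlib 3.10.9. Alternatives covered filter, variance model, weights, scaling, threshold, probe set, replicate block and leaving out each array.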

Additional observations from a re-analysis of the deposited data

Results flagged for a closer look

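Outlying arrays were sought in 48 groups of 5 arrays, from the 24 probe sets given by the naming rule above. Not every probe set in the text was checked. At the limit used, a gap to the nearest neighbour above 0.71 of the range of the group, chance flags about 1 group in 20. Of the 48 groups, 6 had such an array. In 4 of the 6 it was STK38 shRNA replicate 4, the array with the lowest mean correlation with its group. That array was the lowest of its group for STK38 itself (0.858 of the range), VEGFA (0.823), POLA1 (0.929) and TOP2A (0.749). For POLA1 it lay at 1.83 beside a next value of 3.26. Among the members, CIRBP was lowest in STK38 shRNA replicate 2, at 7.02 beside a next value of 7.18, a gap of 0.852 of a narrow range. DYRK2 was highest among the controls in replicate 5 (0.782), at 4.62 beside 4.14.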

How the results depend on the processing

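YBX3 was called lower in all 17 alternative fits, with log2 fold changes from -2.28 to -2.07, and YBX1, CIRBP and RBM3 were called in none of them. RBM3 had a log2 fold change of 0.057 after quantile normalization and 0.0064 without non-target shRNA replicate 1, and YBX1 0.0059 without STK38 shRNA replicate 4, against values just below 0 with all arrays. With the replicate block the member log2 fold changes are the same by construction and YBX3 (-2.20, SE 0.14) was still the member called. Same-numbered arrays had correlations of -0.21 to 0.19, within the range for differently numbered arrays (-0.23 to 0.23). No pairing by number was visible, but so few arrays cannot exclude it. Array weights gave 1619 probe sets called higher, where the fit without them gave 1064, and 7 called genes in the messenger RNP list in place of 4. A threshold of 0.01 left 1494 of 2256 probe sets called and 650 of those higher. The 2 calls among the modifying enzymes were the least stable. They became 0 with each array centred on its median, with no filter, with the replicate block and at the threshold of 0.01, 1 without the trend, 1 after quantile normalization, and between 0 and 2 with single arrays left out. Counting all probe sets of the target list gave 12 called of 30. Without the reverse-strand controls of human genes, YBX1 36140_at was above background on 1 array in place of 0. No group-centred correlation was called under any setting run. With each array centred on its median, the sign turned for CIRBP and RBM3 (0.014 in place of -0.21) and for YBX1 and RBM3 (0.077 in place of -0.29), and r was -0.31 in place of -0.56 for YBX3 and CIRBP.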
